A study of Mus musculus with 24 samples.

Results

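The 10 genes described here are receptors, ligands and Hes factors of the Notch pathway, followed in the whole gut of mouse embryos on day 12.5 of development (E12.5). They were chosen by gene symbol: the receptors Notch1, Notch2 and Notch3, the ligands Dll1, Dll3, Dll4 and Jag1, and the factors Hes1, Hes5 and Hes6. All 10 were found in each of the 4 result tables the authors deposited, whose sizes run from 24602 to 26260 genes. The groups were wildtype guts, guts null for Ret, guts null for Sema3d, and guts null for both, each null being homozygous. Each group had 6 guts, 3 female and 3 male, and every embryo was of the same mixed background of C57BL/6, 129/Sv and C3H. One poly-A RNA library was made per gut, and the labels do not describe the null alleles.

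Ret encodes the receptor for GDNF-family ligands that enteric neural crest cells need to survive, divide and migrate along the gut. Sema3d encodes a secreted semaphorin, one of a family of guidance cues. Notch receptors are cut when a ligand on a neighbouring cell pulls on them, and the freed intracellular part joins RBPJ on DNA and switches on repressors such as Hes1 and Hes5. In the nervous system these repressors hold proneural factors in check, while cells that become neurons make more Delta ligand. Notch is known for keeping progenitors from becoming neurons too early in the enteric nervous system, and it also acts in blood vessels, smooth muscle and epithelium of the gut.

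The deposited tables hold fitted coefficients and p-values, not values per library. A level below is therefore the fitted normalised read count of a gut of that genotype and sex, or its mean over the sexes, and neither the values of single guts nor the depth of the libraries can be read from the tables. The fit has 1 genotype change for both sexes, so within a comparison female and male levels change by the same factor. Changes are log2 coefficients from the authors' deposited tables with a derived standard error, and a gene was called where the deposited adjusted p was below 0.05. The Ret null, Sema3d null and double null comparisons each set 6 mutant guts against the same 6 wildtype guts. The targeted genes matched the labels in direction: Ret RNA was at 0.309% of wildtype in Ret null guts and at 0.0759% in double null guts, and Sema3d RNA was at 47.8% in Sema3d null guts and at 48.6% in double null guts. Sema3d RNA was also called lower in Ret null guts, where it is not targeted, at 83.1% of wildtype (adjusted p = 0.00088174, the authors' deposited table). Every p-value sets a coefficient against 0, with the spread between these guts as the authors' fit took it.

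In wildtype guts the receptors Notch3 and Notch2 and the target Hes1 were the most abundant of the 10 per length of transcript. Their fitted levels per kb of annotated exon in the fit of all 24 guts were 343, 340 and 315. Hes6 followed at 179 per kb, Jag1 at 168, Notch1 at 93.3, Dll1 at 73.3, Dll4 at 39.0, Dll3 at 20.2 and Hes5 at 2.05. The tables allow no error for a level, so neighbours that lie close in this order, such as Notch3 and Notch2 (a ratio of 1.01) or Hes6 and Jag1 (1.06), cannot be ranked. Jag1 held 55.9% of the per-kb sum of the 4 ligands in wildtype guts, Dll1 24.4%, Dll4 12.99% and Dll3 6.72%. Jag1 was thus the leading ligand of these 4, and Dll3, a Delta relative that stays mostly inside the cell and does not activate Notch on neighbours, the least abundant of the 4.

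**Figure D1:**
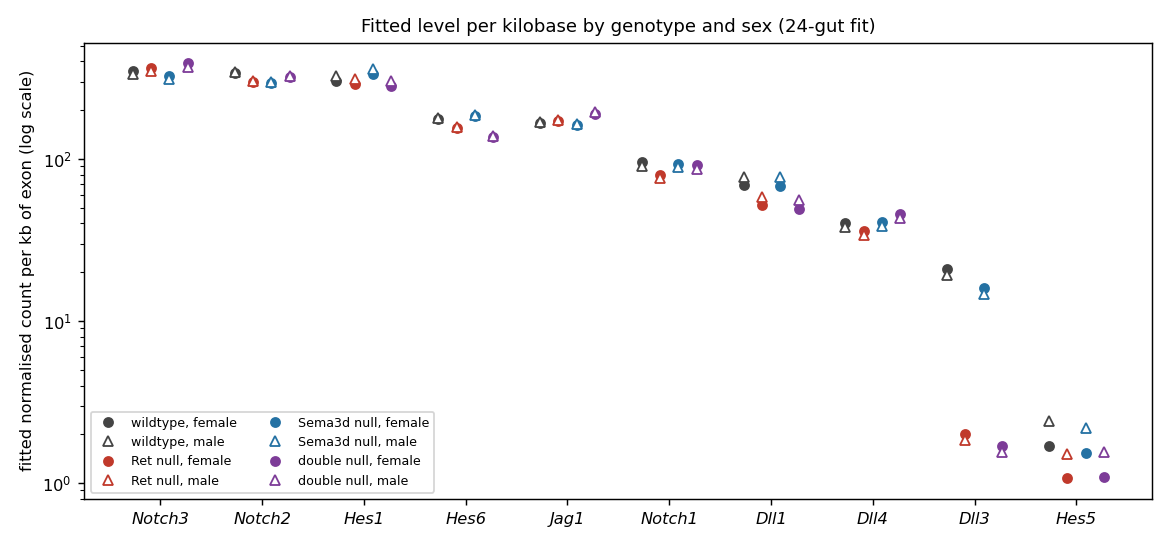
Fitted level of each gene per kb of exon (log axis) in the 4 genotypes, from the fit of all 24 guts. Circles are female and triangles male fitted levels, and no point has an error. As the mean over the sexes, Dll3 drops from 20.2 per kb in wildtype to 1.93 in Ret null guts and 1.63 in double null guts. By the same mean Notch3, Notch2 and Hes1 lie between 294 and 380 in all genotypes.

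Loss of Ret lowered 4 of the 10 genes and raised 0: the ligands Dll3 and Dll1 and the receptors Notch1 and Notch2 (5 of 10 at an unadjusted p below 0.05). Of the 24602 genes tested there, 2.27% were called lower, and of genes at a fitted level of at least 50, which 9 of the 10 reach, 3.26%. The median change of those 9 genes was -0.18, against 0.01 for all genes at that level. Here and below, a gene is at that level if its wildtype or its mutant guts reach it. Dll3 reached it through wildtype alone, at 56.2 against 5.37 in Ret null guts. In the double null fit it stood at 56.6 against 4.57. The shares and medians at this level thus include genes that are high only in the group they fall from. Loss of both genes lowered 3 of the 10 and raised 0 (5 at an unadjusted p below 0.05): Dll3, Dll1 and Hes6, against 1.87% of all genes in the double null table and 2.62% of those at a level of at least 50. There the median of the 9 genes was -0.08, and that of all genes at this level 0.01. With a t distribution in place of the chi-square, 1 of the 10 was called in Ret null guts, Dll3, and 2 in double null guts, Dll3 and Dll1. Loss of Sema3d alone was followed by 0 calls among the 10 by the authors' DESeq test (1 at an unadjusted p below 0.05), where 0.0404% of all genes were called in either direction. By that test 2074 of 24602 genes had an unadjusted p below 0.05 in Ret null guts. In double null guts these were 1655 of 24663, and in Sema3d null guts 1122 of 24747.

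**Figure D2:**
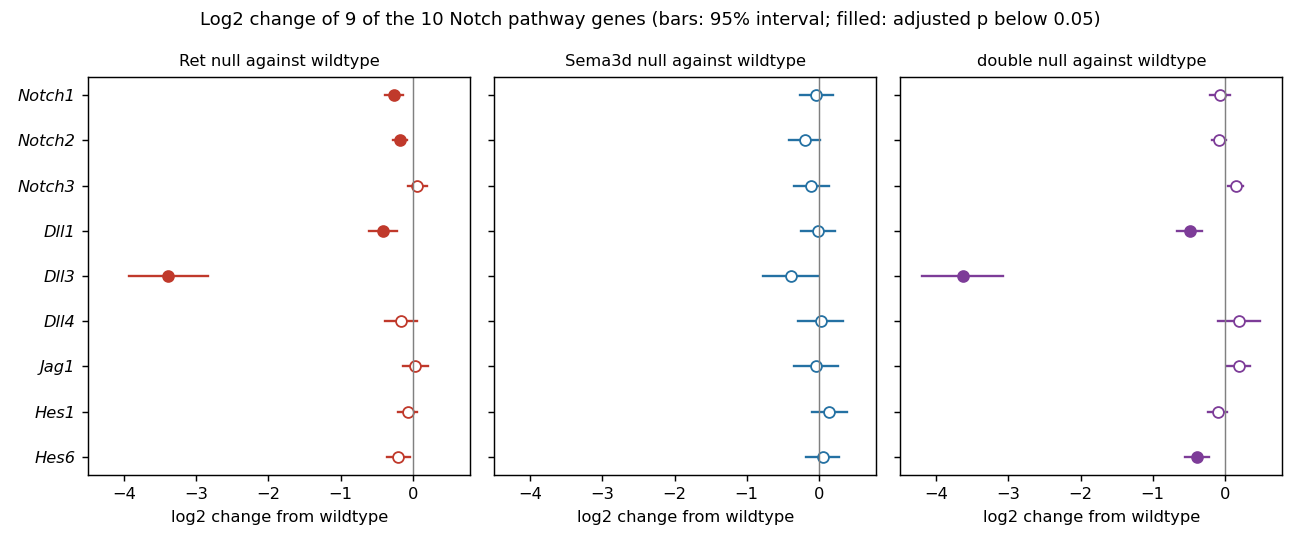
Log2 change from wildtype of 9 of the 10 genes in the 3 comparisons (Hes5, at a level below 3, is left out); points are coefficients from the authors' deposited tables, bars their 95% intervals, and filled points have an adjusted p below 0.05. Dll3 lies at -3.39 in Ret null guts and -3.63 in double null guts, and the other called genes lie between -0.49 and -0.18.

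Among the ligands, Dll3 changed most. Its fitted level was 59.3 in female and 53.1 in male wildtype guts, and 5.66 and 5.07 in Ret null guts. The change in the authors' deposited table was -3.39 ± 0.28, which leaves 9.55% of wildtype (95% interval 6.53 to 13.95%). The authors' deposited table lists its adjusted p as 0, and recomputed from the deposited deviances the DESeq adjusted p was 2.5008e-31. In double null guts the level was 4.85 in females and 4.29 in males, against 60.1 and 53.2 in that fit's wildtype, a change of -3.63 ± 0.29 or 8.07% of wildtype (interval 5.47 to 11.9%). Here too the authors' deposited table lists 0, and the DESeq adjusted p recomputed from the deviances was 3.0727e-34. In Sema3d null guts it was 45.9 in females and 43.1 in males, with a coefficient of -0.39 ± 0.19 that did not pass (p = 0.045746, adjusted p = 0.99962, the authors' deposited table). The mutant levels of Dll3 without Ret were thus around 5 counts in both sexes, far below every wildtype and Sema3d null level. No annotated gene overlaps Dll3 (GRCm38 chromosome 7, 28293553 to 28302238, minus strand).

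Dll1, the main activating Delta ligand of neurogenesis, fell by a smaller amount in the same guts. Its level was 286 in female and 317 in male wildtype guts, and 215 and 238 in Ret null guts, a change of -0.41 ± 0.10 to 75.2% of wildtype (adjusted p = 0.0013836, the authors' deposited table). In double null guts it was 197 and 238, against 276 and 333 in that fit's wildtype, a change of -0.49 ± 0.09 to 71.3% (adjusted p = 2.8584e-06, the authors' deposited table). With a t distribution for the same statistic, which allows for the few guts, the adjusted p of Dll1 was 0.037379 in double null and 0.13335 in Ret null guts, so the Ret null call is lost. In Sema3d null guts the coefficient was -0.01 ± 0.12, with an interval of -0.25 to 0.23.

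Dll4, a ligand of sprouting endothelium, and Jag1, a ligand of arteries, smooth muscle and progenitors, were not called in any table. Dll4 had coefficients of -0.16 ± 0.11 in Ret null, 0.02 ± 0.16 in Sema3d null and 0.20 ± 0.15 in double null guts. Jag1 had 0.04 ± 0.09, -0.04 ± 0.15 and 0.19 ± 0.08, the last with p = 0.015329 and an adjusted p of 0.39265 in the authors' deposited table. Of the 4 ligands only the Delta genes Dll3 and Dll1 were called without Ret, and Jag1 made up 65.2% of the per-kb ligand sum in Ret null guts and 66.1% in double null guts. The ligand sum itself was 301 per kb in wildtype, 264 in Ret null, 291 in Sema3d null and 291 in double null guts. These sums and shares are descriptions without a test.

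Among the receptors, Notch1 and Notch2 fell modestly in Ret null guts. Notch1, broadly used in neural and vascular cells, had a level of 1315 in female and 1278 in male wildtype guts and of 1097 and 1066 in Ret null guts, a change of -0.26 ± 0.06 to 83.4% (adjusted p = 0.0023676, the authors' deposited table). Notch2 had 3520 and 3646 in wildtype and 3118 and 3229 in Ret null guts, a change of -0.18 ± 0.05 to 88.6% (adjusted p = 0.012199, the authors' deposited table). The receptors thus changed far less than Dll3 did, at much higher levels. With the t distribution for the DESeq statistic neither was called: the adjusted p of Notch1 was 0.15465 and that of Notch2 0.25135.

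In double null guts neither receptor was called. The coefficient of Notch1 was -0.06 ± 0.07 (interval -0.20 to 0.07) and that of Notch2 -0.08 ± 0.05 (interval -0.18 to 0.01). The Notch1 interval overlaps that of Ret null guts, -0.39 to -0.14. In the fit of all 24 guts the double null coefficient exceeded the Ret null coefficient by 0.20 for Notch1 and 0.09 for Notch2, differences for which the tables give no test. In Sema3d null guts Notch1 had -0.03 ± 0.12 and Notch2 -0.19 ± 0.11, neither called.

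Notch3, the receptor of smooth muscle and pericytes, was not called in any comparison. Its coefficients were 0.07 ± 0.07, -0.10 ± 0.12 and 0.15 ± 0.06 in guts null for Ret, for Sema3d and for both, the last with p = 0.0073751 and an adjusted p of 0.23933 in the authors' deposited table. Notch4, the endothelial receptor and the only one outside the 10, had 0.15, 0.12 and 0.29, the last with p = 0.018551 and an adjusted p of 0.44204 in the authors' deposited table.

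Among the Hes factors, Hes6 was lower in double null guts. Hes6 is an unusual member of the family that is made by cells on their way to becoming neurons and opposes Hes1. Its level was 318 in female and 317 in male wildtype guts and 244 and 243 in double null guts, a change of -0.38 ± 0.09 to 76.7% (adjusted p = 0.00054391, the authors' deposited table). In Ret null guts it was 281 and 269 against 322 and 309 in that fit's wildtype, a coefficient of -0.20 ± 0.08 that did not pass (p = 0.01672, adjusted p = 0.32287, the authors' deposited table). The difference between the double null and Ret null coefficients, -0.19 in the 24-gut fit, was not tested in the tables. With the t distribution the double null call of Hes6 is lost, as its adjusted p was 0.11868 there. In Sema3d null guts the coefficient was 0.06 ± 0.12.

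Hes1, the abundant repressor of proneural genes, was not called in any table. Its level of 613 in female and 638 in male wildtype guts stood against 584 and 607 in Ret null guts, a coefficient of -0.07 ± 0.06. The interval of -0.20 to 0.05 spans from 87.2 to 104% of wildtype. The coefficient was 0.14 ± 0.12 in Sema3d null and -0.10 ± 0.07 in double null guts. Hes5, a direct Notch target in neural progenitors, had a fitted level of 2.79 in wildtype, 1.76 in Ret null, 2.53 in Sema3d null and 1.81 in double null guts. At levels this low no fold is given, and a difference was not detectable.

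The stretches before the transcription starts of Hes5, Dll1 and Hes6 are shown because these are the member windows that hold the RBPJ core or the most E-boxes, the kind of letters bound by proneural factors. They are the 250 bases before a start in RefSeq (build GRCm38.p6), written 5′ to 3′ in the direction of the gene. Capitals mark TGGGAA, the RBPJ core, on either strand in Hes5, and CANNTG, the E-box, in Dll1 and Hes6. The Hes5 window is chr4:154960673-154960922 on the plus strand, the Dll1 window chr17:15376933-15377182 on the minus strand and the Hes6 window chr1:91414039-91414288 on the minus strand.
Hes5: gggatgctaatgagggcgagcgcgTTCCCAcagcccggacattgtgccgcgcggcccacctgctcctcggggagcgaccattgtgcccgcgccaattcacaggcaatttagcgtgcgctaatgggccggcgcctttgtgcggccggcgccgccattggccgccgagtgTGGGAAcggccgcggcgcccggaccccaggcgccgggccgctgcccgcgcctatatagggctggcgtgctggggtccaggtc
Dll1: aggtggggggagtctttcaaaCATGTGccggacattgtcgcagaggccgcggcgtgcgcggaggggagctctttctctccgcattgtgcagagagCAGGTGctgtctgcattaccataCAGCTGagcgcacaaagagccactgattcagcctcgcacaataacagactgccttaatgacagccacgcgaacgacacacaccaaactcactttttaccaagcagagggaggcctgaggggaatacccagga
Hes6: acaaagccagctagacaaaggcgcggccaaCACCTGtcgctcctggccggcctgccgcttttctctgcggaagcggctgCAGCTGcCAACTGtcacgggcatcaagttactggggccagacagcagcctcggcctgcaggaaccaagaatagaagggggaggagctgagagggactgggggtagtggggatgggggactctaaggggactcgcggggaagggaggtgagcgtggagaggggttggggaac
The RBPJ core occurs in the Hes5 window 226 and 82 bases before the start, both times within the longer GTGGGAA. The E-boxes lie 229, 155 and 132 bases before the start in Dll1, and 220, 171 and 164 bases before it in Hes6.

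RefSeq promoter entries matched 9 of the 10 genes in 11 windows, as Dll1 and Hes6 have 2 starts each, and Hes1 had no entry. TGGGAA was in 1 of the 11 windows and in 21.6% of all 32851 windows of this length, and GTGGGAA, which contains it, in 1 of 11 and 5.42%. The E-box was in 7 of the 11 windows, those of Dll1, Dll3, Hes5, Hes6 and Jag1, and in 66.2% of all. CACNAG, the N-box that Hes factors bind, was in 5 of 11, in windows of Notch1, Notch2, Notch3, Dll4 and Hes6, and in 36.7% of all. Both strands were searched. Some windows overlap annotated exons of their own gene in GENCODE M21: all 250 bases for Dll3, 153 for one of the Dll1 windows, 124 for Jag1, 11 for Notch2 and 2 for Notch1, and none for the 3 windows shown. A match is a description of letters in the window and not of binding.

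The test of non-additivity asked whether the double null differed from the sum of the single-null changes. It called 0 of the 10 genes by the authors' DESeq test, where 0.164% of all genes were called. At an unadjusted p below 0.05 stood 1 of the 10, against 1783 of all 26258 genes. Notch2 had the lowest p: its interaction was 0.29 ± 0.12 (p = 0.019063, adjusted p = 0.59232, the authors' deposited table), since the single-null coefficients of -0.17 and -0.19 sum to -0.37 and the double null coefficient was -0.08. For Dll3 the sum of the single-null coefficients was -3.78 and the double null coefficient -3.63, an interaction of 0.14 ± 0.45. For Dll1 they were -0.42 and -0.49, an interaction of -0.06 ± 0.18 with an interval of -0.41 to 0.28. Hes6 had -0.24 ± 0.14 and Notch1 0.23 ± 0.15.

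**Figure D3:**
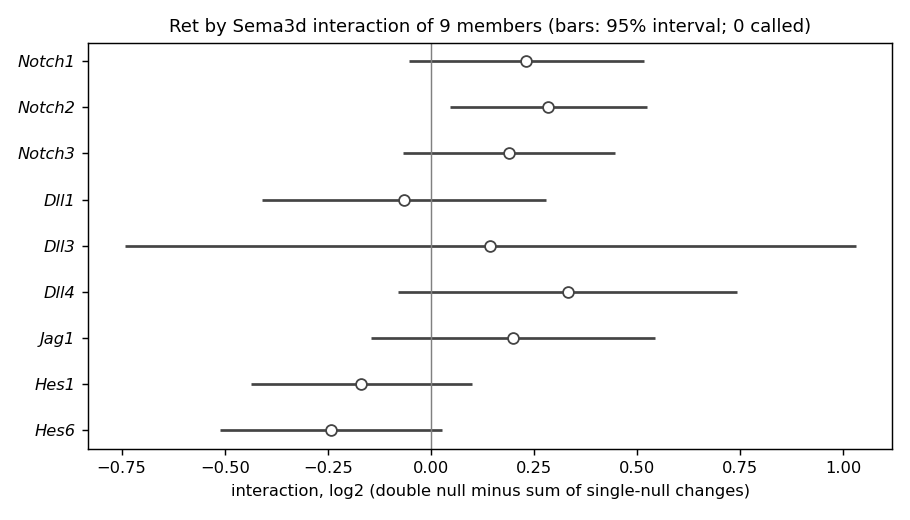
Ret by Sema3d interaction of 9 of the 10 genes (log2, double null minus the sum of the single-null changes), from the authors' deposited table; bars are 95% intervals and 0 genes were called. Notch2, at 0.29, is the gene whose interval leaves out 0.

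The rest of the pathway was read from 7 lists of 59 genes, of which 57 were in the Ret null table. In Ret null guts 4 of 57 were called lower and 0 higher (7.02%, against 2.66% of all genes in either direction): Dner, Mfng, Fbxw7 and Heyl. Dner, a neuronal surface protein that resembles Notch ligands, had -2.26 ± 0.35. Mfng, a fringe sugar transferase that tunes which ligand a receptor answers, had -0.59 ± 0.12, and Fbxw7, part of the ubiquitin ligase that removes the Notch intracellular part, -0.30 ± 0.07. Heyl, a Hey-family target, had -0.67 ± 0.20. In double null guts 3 of 57 were lower and 0 higher (5.26%, against 2.1%), with -1.83 ± 0.32 for Dner, -0.42 ± 0.11 for Mfng and -0.31 ± 0.07 for Fbxw7. With the t distribution only Dner of these was called, and its adjusted p was 0.013657 in Ret null guts and 0.034506 in double null guts. For loss of Sema3d and for the interaction 0 of 58 were called (5 and 10 at an unadjusted p below 0.05, the authors' DESeq test). Over all genes, 1122 of 24747 and 1783 of 26258 had an unadjusted p below 0.05. The median of the 49 list genes at a level of at least 50 was -0.01 in Ret null guts and 0.04 in double null guts, against 0.01 for all genes. The 15 nuclear complex and co-repressor genes, Rbpj among them, had 0 calls in every table by the same test (at most 1 at an unadjusted p below 0.05).

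The proneural and neurogenic factors, on which Hes repressors and Delta ligands act, held the lowest coefficients of the pathway lists. Of the 12 genes listed, 10 were in those tables, and 5 of them were called lower without Ret alone and 5 without both genes. The median of the 6 at a level of at least 50 was -3.45 and -3.16. Among those called, the coefficients were -3.54 and -3.45 for Myt1, -3.37 and -2.86 for Insm1, and -0.28 and -0.33 for Hand2, which gut mesenchyme also makes. With the t distribution Hand2 was not called in Ret null guts, where its adjusted p was 0.065713. Dll3 at -3.39 and -3.63 thus lay among the neurogenic factors in size of change, and Dll1 and Hes6 nearer to Hand2.

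**Figure D4:**
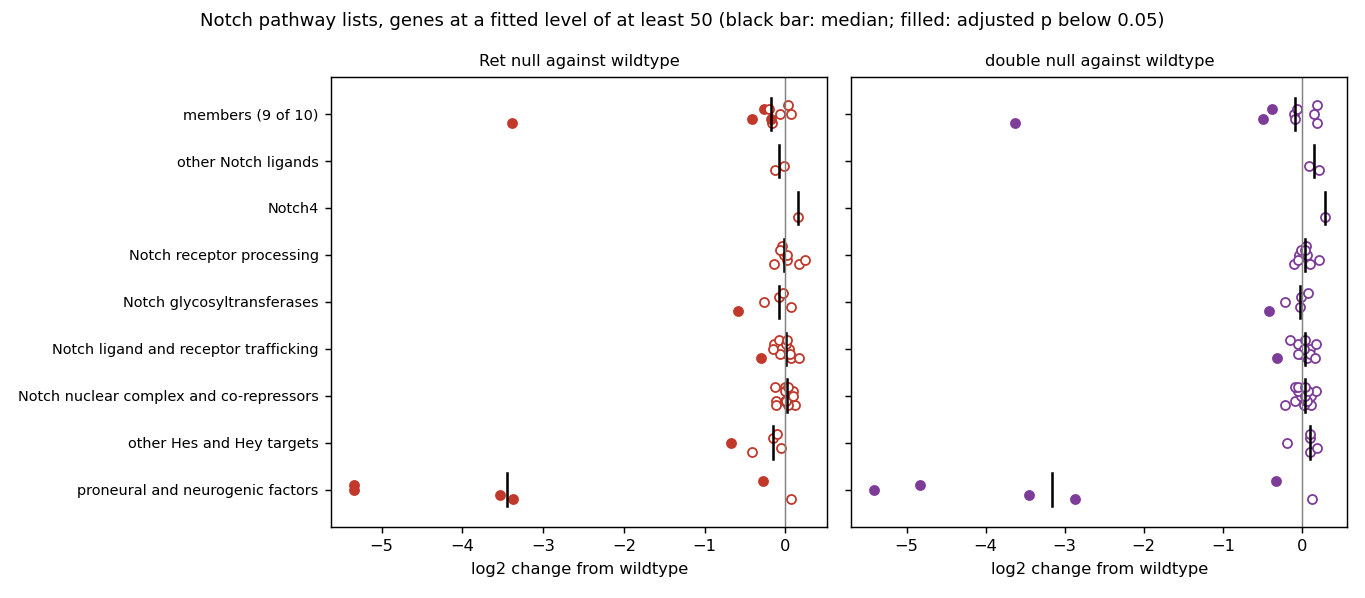
Log2 change in Ret null and double null guts of the Notch pathway lists and of the 10 genes (9 shown). Each point is a gene at a fitted level of at least 50 in wildtype or mutant guts, so that Dner is not shown. Each bar is a list's median. Most list medians lie around 0. Dll3 and most of the neurogenic factors lie far below, while Hand2 at -0.28 and -0.33 lies near the other lists, above Mfng at -0.59 and -0.42.

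Distances between the 3 genotype changes of the 24-gut fit were taken over 12182 genes at a fitted wildtype level of at least 50. Genes below that level in wildtype, such as Dner, were not compared. Among those compared, the genes near Dll3 included Myt1 and Tnr, 0.265 and 0.305 away, and 0 genes lay within 0.1. Nearest to Dll1 were Tuba1a, Arvcf and Cyp2j6 (9 genes within 0.1), and to Hes6 Zcchc18, Inpp5f and Pcbp4 (7 genes). Notch1 had 96 genes within 0.1, led by Prox1, Klf6 and Csf1r, and Notch2 had 257, led by Tbck and Lnp. Of these 5 genes Dll3 therefore had the fewest others within 0.1 and Notch2 the most. These counts depend on the size of the change, as few genes changed as much as Dll3. The derived error of Dll3 in Ret null guts, 0.28, also exceeds that distance. The genes share all their guts, so these distances are descriptions.

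Marker lists of the cell types of the gut differed in their calls. All 8 enteric neuron markers were called lower without Ret, in either genotype, and their summed level was 2764 in wildtype, 553 in Ret null, 2740 in Sema3d null and 544 in double null guts. Of 8 markers of crest progenitors and glia 6 and 7 were lower, with sums of 3538, 1474, 3195 and 1525. S100b of that list was near 0 in wildtype, at 0.58. In whole guts fewer cells of a type and less RNA per cell cannot be told apart, and the part of these cells in the lower Dll3, Dll1, Hes6, Notch1 and Notch2 was not tested. Of 8 endothelial markers 0 were called in Ret null and 5 were higher in double null guts, with sums of 5327, 5343, 5767 and 6335. Their part in the levels of Notch1, Dll4, Jag1 and Notch4 was not tested. Macrophage markers summed to 865, 721, 876 and 818, with 4 of 6 at an unadjusted p below 0.05 in Ret null guts, and their part in the lower Notch1 was not tested. Smooth muscle and pericyte, epithelial, mesothelial, macrophage and erythroid lists had 0 calls in every table by the DESeq test (at most 4 at an unadjusted p below 0.05), and Chgb was the 1 enteroendocrine marker called, lower in Ret null guts at -0.70 ± 0.19 (authors' deposited table).

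**Figure D5:**
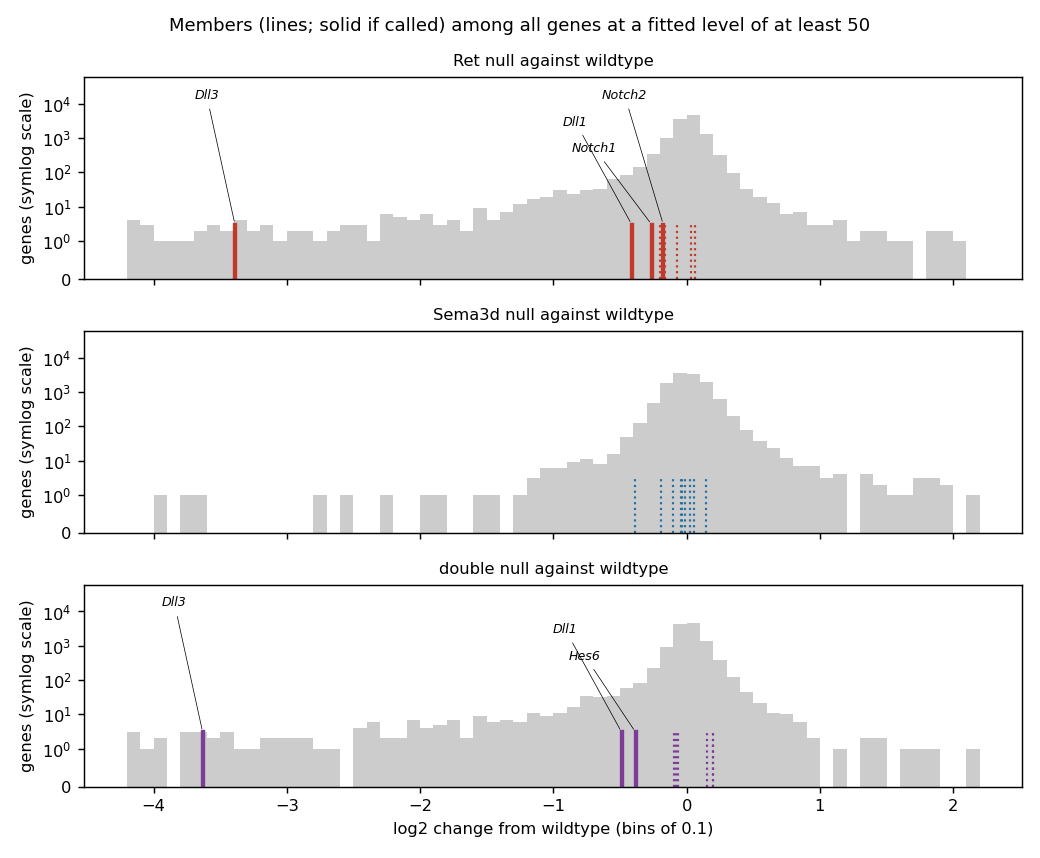
Distribution of the log2 change over all genes at a fitted level of at least 50 in wildtype or mutant guts. The 9 Notch pathway genes at that level are marked. The bulk of genes lies around 0 (medians 0.01 or less), and Dll3 stands far to the left in Ret null and double null guts.

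Other annotated genes overlap Notch1, Notch2, Notch3, Dll1, Dll4 and Hes5 in GRCm38. The highest wildtype level among them was 17.9, for Gm42820 within Notch2. Libraries were stranded per the labels' protocols, and the strand setting of the counting is not given. Dll1 lies on chromosome 17, 15367354 to 15376872, Hes6 on chromosome 1, 91411483 to 91414038, Notch1 on chromosome 2, 26457903 to 26516663, and Notch2 on chromosome 3, 98013527 to 98150361. None of the 10 lies on chromosome 6 or 5, which carry Ret and Sema3d.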

How the data were processed

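Poly-A RNA-seq of 24 E12.5 guts was analysed from the result tables only. The submitters' processing notes name, without roles, DESeq 1.24.0, RSEM 1.2.31, STAR, Trimmomatic 0.36 and FastQC 0.11.5, and the build GRCm38 (mm10). The log2 coefficients (intercept, sex, genotype) were deposited by the authors. Interaction-table coefficients and model deviances, also deposited by the authors, were handled as a score because a few unbounded fits lie far outside the usual log range. The p-values and adjusted p-values are the authors' deposited DESeq values. The 3 single comparisons have sex as a covariate over 12 guts, and the interaction table fits 24. Symbol and gene type carry each other's header in the Ret null table and were read by content.

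From these values were computed, with Python 3.11.15, pandas 2.3.3, NumPy 2.4.6 and SciPy 1.17.1, the derived error (coefficient size over the root of the deviance difference), 95% intervals, and fitted levels with base 2, since the base is not named in the headers: fitted totals of a female wildtype gut, over genes with an intercept below 20, were 11.5 to 12.0 with base 2 and 432 to 458 with the natural base, in units of 1000000 normalised counts. The second lies far above the read depth aimed at per the labels' protocols. Deposited p-values matched the chi-square tail (1 degree of freedom) within 4.91e-09. Adjusted p-values listed as 0 were recomputed by Benjamini-Hochberg. The derivation was tested on simulated data with the same spread between guts for every gene, known to the fit. That test therefore does not cover estimating the spread from few guts. Locations and exon lengths come from GENCODE M21, matched without version; promoters from RefSeq (GRCm38.p6). The depth per library is unknown, which leaves the derived errors as the measure of precision.

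Genes named were the 10 chosen by symbol, called genes of the lists, and the 3 nearest genes by distance for each called member. Some of the genes this rule picks are not reported here. The members and lists were chosen with earlier results of these data known. Alternatives were other thresholds, a t distribution, adjustment over genes at a level of at least 50, re-centring and the 24-gut fit.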

Additional observations from a re-analysis of the deposited data

How the results depend on the processing

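With a t distribution (9 residual degrees of freedom, or 19 for the interaction) the count of the 10 genes called in Ret null guts went from 4 to 1, Dll3, and in double null guts from 3 to 2, Dll3 and Dll1. Over all genes the calls went from 654 to 304 in Ret null, from 518 to 250 in double null, from 10 to 0 in Sema3d null guts and from 43 to 7 for the interaction. At an adjusted p below 0.1 the Sema3d null table had 17 calls and the interaction 65, and at 0.01 they had 5 and 14. At 0.01 Notch2 was no longer called in Ret null guts. Adjusting over genes at a level of at least 50 gave the same 4 genes for loss of Ret and the same 3 for loss of both. Re-centring on the median of all genes kept the direction of all 40 member coefficients. The 24-gut fit, whose p-values test only the interaction, moved Hes5 by up to 0.20 on the log2 scale and turned its uncalled Sema3d null coefficient from 0.05 to -0.14, and moved the other members by under 0.01. No paired analysis was possible because the tables hold no value per library, and for the same reason no gut could be left out. Low levels limit Hes5.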

Other observations

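The coefficient for sex, male minus female, has no p-value in the deposited tables. For Dll1 it lay between 0.15 and 0.27 on the log2 scale over the 4 tables, for Hes1 between 0.06 and 0.17, and for Dll3 between -0.17 and -0.09. The 4 tables share guts, so these ranges are not repeats.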
